A study of Mytilus galloprovincialis with 16 samples.

Results

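Transcripts of the replication factor MCM5 and of the histone variants H2A.Z and H3.3 were followed through 4 stages of female gonadal development in the mantle of the mussel Mytilus galloprovincialis, the tissue that houses the gonad of this bivalve. They are 3 of the 368 genes in the copy used here of the study's list of genes modulated in female mantle, on a cDNA array of 1920 probes. The listed genes were chosen by measured values, namely the stage 2, 3 and 4 changes against stage 1 fitted over the same 16 arrays, so the stage changes given here are a description and carry no p-value. The array files name spots by clone only. Each gene was tied to the clone whose 3 fitted changes lay within 0.005 of those in the study's list: AJ516412 (minichromosome maintenance complex component 5, MCM5) to Myt01-001C05, AJ516582 (H2A histone member Z) to Myt01-002C05 and AJ516600 (H3 family 3B, H3.3) to Myt01-002D03. The largest difference for these 3 was 0.00128, and the next closest clone differed by at least 0.144. The gene names are the study's annotation by sequence similarity. The cDNA probes may also bind transcripts of close relatives, such as other histone copies, which was not tested.

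Wild mussels from the Bizerta Lagoon in Tunisia were staged by histology, and RNA of single females was hybridized in dual-color competition. No treatment was given. The stages were early (stage 1, sampled in November), developing (stage 2, in January), ripe (stage 3, in February) and spawning (stage 4, in March). The stages formed a loop of 4 direct comparisons, stage 2 over 1, 3 over 2, 4 over 3 and 4 over 1, with 4 arrays each and the dyes swapped on 2 of the 4. The labels do not say which female is on which array, and replicate 4 of stage 3 over 2 carries stage 4 in both its source and its developmental stage fields although its title and month give stage 3. It was used as stage 3, and without it the stage 3 over 2 means were 3.16 ± 0.29 for H3.3, 1.82 ± 0.41 for H2A.Z and 0.59 ± 0.31 for MCM5 (log2, SD, n = 3). Each stage was sampled in 1 month, so stage and month cannot be told apart. In whole mantle, fewer cells of a type and less RNA per cell cannot be told apart either.

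MCM5 is a subunit of the MCM helicase, the ring that is loaded on DNA before replication and unwinds it at the fork, and its transcript is abundant in dividing cells. H2A.Z replaces H2A in nucleosomes near promoters and regulatory DNA. H3.3 replaces H3 in transcribed chromatin and, in many animals, during the remodelling of germ cell and early embryo chromatin. Unlike the histones made in S phase, both variants are encoded by polyadenylated mRNAs and are put into chromatin outside replication. Oocytes of egg-laying animals store histone and replication proteins and their mRNAs for the cleavage divisions.

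The 3 genes shared the direction of change in the middle of the cycle but not its size. From stage 2 onwards all 3 were higher at the later stage on average, with the largest step at stage 3 over 2 for the histones, where H3.3 averaged 9.27-fold and H2A.Z 3.50-fold while MCM5 averaged 1.40-fold. At stage 2 over 1, MCM5 and H2A.Z were lower at stage 2 and H3.3 was level. Against stage 1, stage 4 was lower in MCM5 and H2A.Z and a little higher in H3.3.

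H3.3 showed the clearest step. At stage 3 over 2 its log2 ratios on replicates 1 to 4 were 2.84, 3.41, 3.23 and 3.37, a mean of 3.21 ± 0.26 (SD, n = 4 arrays). All arrays of this comparison lay above every other H3.3 array, in both dye orientations (3.39 on average with stage 3 in Cy5 and 3.04 with stage 3 in Cy3). This was the highest mean of the 1920 probes in that comparison. The intensities behind it, less local background, were 692, 7269, 3484.5 and 2095 in the stage 3 channels of replicates 1 to 4, against 170, 571, 973 and 189.5 in the stage 2 channels. Before normalization these intensities gave ratios of 4.07, 12.7, 3.58 and 11.1, higher on the 2 arrays with stage 3 in Cy5, so the similar log2 ratios are those after loess.

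In the other comparisons H3.3 moved little. At stage 2 over 1 the 4 arrays gave -0.18, 0.19, -0.22 and 0.34, a mean of 0.03 ± 0.27 (SD, n = 4). The sign followed the dye, with the 2 arrays carrying stage 2 in Cy5 above 0 and the 2 carrying it in Cy3 below 0. The stage 4 over 3 arrays gave 0.45, 0.37, 0.66 and 0.22 (mean 0.42 ± 0.18), and those of stage 4 over 1 gave 0.15, 0.37, 0.30 and 0.70 (mean 0.38 ± 0.23). Both were above 0 on every array. The stage 4 over 1 change vanished without background correction, at -0.022.

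H2A.Z took the same step at stage 3 over 2 at a smaller size. Its log2 ratios there were 1.46, 2.27, 1.72 and 1.78, a mean of 1.81 ± 0.34 (SD, n = 4), which ranked 53 from the top among 1920 probes. Background-subtracted intensities were 280.5, 2646, 769 and 420 in the stage 3 channels, against 160.5, 466.5, 463.5 and 107 in the stage 2 channels. At stage 2 over 1 the arrays gave -0.39, -1.07, -0.50 and -1.18 (mean -0.78 ± 0.40). The drop was present in both dye orientations, larger with stage 2 in Cy5 (-1.13 on average) than with stage 2 in Cy3 (-0.44). On both arrays with stage 2 in Cy5 the spots disagreed, at -0.56 and -1.59 on replicate 2 and -1.55 and -0.80 on replicate 4. The stage 2 intensity on replicate 4 was 28.5. In the stage 4 over 3 comparison the values were 0.35, 0.00, 0.79 and 0.61 (mean 0.44 ± 0.34). Against stage 1, stage 4 gave -0.10, -0.72, -0.61 and -0.33 (mean -0.44 ± 0.28). The stage 4 values thus sat above stage 3 on 3 of 4 arrays and below stage 1 on 4 of 4.

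MCM5 changed least between stages 2 and 3, and its spread between arrays was the widest of the 3 genes at stage 2 over 1 and at 4 over 1. At stage 2 over 1 it gave -0.38, -1.57, -0.26 and -0.92, a mean of -0.78 ± 0.60 (SD, n = 4). The lowest of these rested on 2 spots that disagreed, at -0.71 and -2.44, and the mean without that array was -0.52. At stage 3 over 2 it gave 0.95, 0.42, 0.40 and 0.19 (mean 0.49 ± 0.32), rank 291 from the top. Every array lay above 0 there, as for both histones. For stage 4 over 3 the ratios were 0.44, 0.12, 0.70 and 0.33 (mean 0.40 ± 0.24). For stage 4 over 1 they were -0.15, -0.87, -1.02 and -0.67 (mean -0.68 ± 0.38). All 4 were below 0, yet this direction rested on the intensity-dependent normalization, since median centring alone turned the mean to 0.27.

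**Figure D1:**
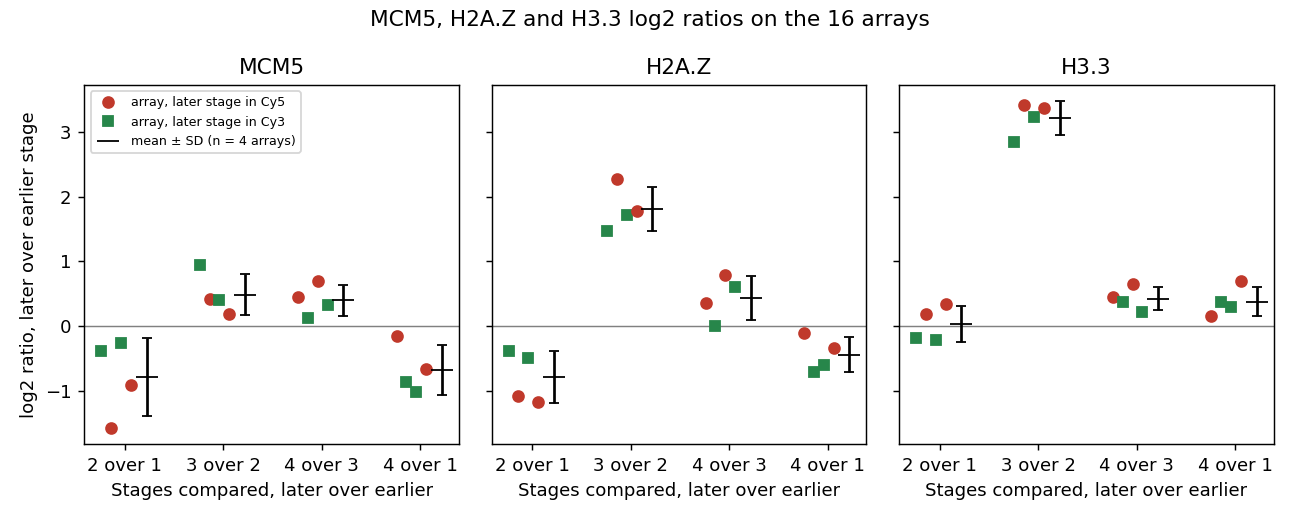
The y axis gives the log2 ratio of the later over the earlier stage for MCM5, H2A.Z and H3.3 on each array, by comparison on the x axis; circles are arrays with the later stage in Cy5, squares with the later stage in Cy3, and black marks are means ± SD of 4 arrays. H3.3 at stage 3 over 2 sits between 2.84 and 3.41, above all its other arrays, and MCM5 stays between -1.57 and 0.95.

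Against the whole array these counts were modest. All 4 arrays lay on one side of 0 for 2 of the 3 genes at stage 2 over 1, for 3 at stage 3 over 2, for 2 at stage 4 over 3 and for 3 at stage 4 over 1. The same held for 38.4%, 47.2%, 31.8% and 36.2% of all 1920 probes, in that order of comparisons. Probes were called by limma, at a Benjamini-Hochberg adjusted p below 0.05 together with positive log odds (B). H2A.Z was called at stage 2 over 1, where 6.51% of all probes were, and H2A.Z and H3.3 at stage 3 over 2, where 14.8% were. None of the 3 was called at stage 4 over 3 (5.26% of probes) or 4 over 1 (7.5%). Before adjustment 2, 3, 2 and 3 of the 3 were under 0.05 in the order of the comparisons, as were 28%, 37.6%, 17.1% and 39.4% of all probes. The H2A.Z call at stage 2 over 1 was lost when any 1 of 7 of the 16 arrays was left out (among them replicates 2, 3 and 4 of that comparison, with means between -0.88 and -0.65), without background correction (-0.37), with median centring and with the replicate block, under which MCM5 was called there. As these arrays chose the genes, nothing is read from the calls.

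The 4 comparisons close a loop, so the sum of the 3 steps from stage 1 to stage 4 can be set against the direct stage 4 over 1 arrays. That mismatch, stage 2 over 1 plus 3 over 2 plus 4 over 3 minus 4 over 1, does not enter the stage changes that chose the genes and can be tested. It does enter the spread around a stage fit, on which the study's calls also rest, so the choice was not wholly independent of it. H3.3 did not close the loop: the 3 steps summed to 3.67 on the log2 scale, against 0.38 on the direct arrays. The mismatch was 3.29 ± 0.24 (SE), with an adjusted p of 1.34e-06 over 1920 probes by limma. For H2A.Z the steps summed to 1.46 against -0.44 measured directly, a mismatch of 1.90 ± 0.33 (limma, adjusted p = 0.00127). MCM5 gave 0.10 by steps and -0.68 directly, and its mismatch of 0.78 ± 0.38 did not pass (adjusted p = 0.21). A mismatch was called for 2 of the 3 genes and for 5.78% of all probes. By size, H3.3 ranked 14 and H2A.Z 64 of 1920, where the median absolute mismatch was 0.35. Both stayed called when any single array was left out, at 3.19 to 3.42 for H3.3 and 1.74 to 2.04 for H2A.Z. The H2A.Z call was lost, on B alone, under median centring (1.99, adjusted p = 0.0126) and plain background subtraction (2.14, adjusted p = 0.0118).

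The stage values fitted over the loop lay between its routes. For H3.3 the least squares fit over all arrays, the kind of fit behind the study's list, gave -0.79 ± 0.37 (SE) at stage 2, 1.60 ± 0.43 at stage 3 and 1.20 ± 0.37 at stage 4, all over stage 1. The direct stage 2 over 1 arrays, at 0.03 ± 0.12 (SE), did not show that stage 2 drop. Going forward by stage 2, stage 3 stood 3.25 ± 0.17 above stage 1, whereas going back through stage 4 it stood at -0.04 ± 0.17. The fitted 1.60 lay midway between the 2 routes.

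H2A.Z changed sign with the route. Stage 3 over 1 was 1.02 ± 0.23 (SE) by way of stage 2 and -0.87 ± 0.23 by way of stage 4, while the fit over all arrays gave 0.07 ± 0.29. Its fitted stage 2 value of -1.26 ± 0.25 was lower than the direct -0.78 ± 0.16, since the other route gave -2.68 ± 0.28. For MCM5 the fit gave -0.98 ± 0.18, -0.69 ± 0.21 and -0.48 ± 0.18 at stages 2, 3 and 4. Its routes to stage 3, -0.30 ± 0.27 and -1.08 ± 0.27, were both below 0.

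**Figure D2:**
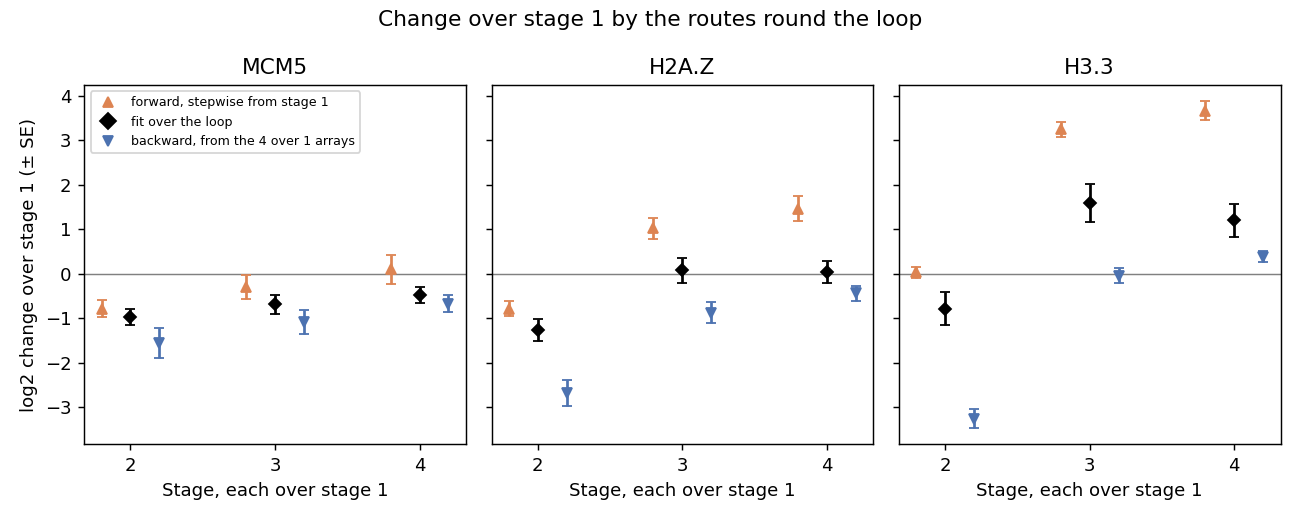
The y axis gives the log2 change over stage 1 (± SE) of each stage on the x axis for MCM5, H2A.Z and H3.3; upward triangles add the steps forward from stage 1, downward triangles go back from the stage 4 over 1 arrays, and diamonds are the fit over all 16 arrays. At stage 3 the routes lie at 3.25 and -0.04 for H3.3, at 1.02 and -0.87 for H2A.Z and at -0.30 and -1.08 for MCM5.

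Single-channel levels divided the mismatch among the stages. Each stage was measured on 2 sets of 4 arrays, and after the channels had been brought to a common scale the mismatch is exactly the sum of 4 differences between sets of the same stage. For H3.3 these were -0.21 at stage 1, 0.08 at stage 2, 0.90 at stage 3 and 2.51 at stage 4, the last being the stage 4 over 3 arrays minus the stage 4 over 1 arrays. Stage 4 thus held most of it. The H3.3 level in the stage 4 channels was 10.23 ± 0.35 (mean log2 intensity ± SD, n = 4) on the arrays against stage 3 and 7.72 ± 0.16 on those against stage 1. Background-subtracted intensities in these channels were 1626, 676, 1031 and 580.5 on the first set and 231.5, 82.5, 111 and 161 on the second. The 2 sets did not overlap, although both were labelled stage 4 and March.

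H2A.Z split in the same way. Its stage 4 level was 8.92 ± 0.29 on the arrays against stage 3 and 7.17 ± 0.16 on those against stage 1, a difference of 1.75. At stages 1, 2 and 3 the differences were -0.19, -0.16 and 0.50. MCM5 did not split at stage 4, with 8.07 ± 0.22 and 8.08 ± 0.32, but its stage 3 sets did not overlap (a difference of 0.59 between the arrays of stage 3 over 2 and those of 4 over 3). The levels of the 2 sets failed to overlap at stage 4 for 2 of the 3 genes and for 29.8% of all probes, and by size of the difference H3.3 ranked 4 and H2A.Z 13 of 1920 from the top. Over all probes the number without overlap was 229, 193, 270 and 573 at stages 1, 2, 3 and 4. Without background correction the stage 4 difference was 1.85 for H3.3 and 1.05 for H2A.Z, with plain subtraction 2.87 and 2.41, and with quantile normalization of the single channels 2.43 and 1.69. Spots above the 95th percentile of empty spots made up 68.9% to 82.3% of probe spots in the channels of the stage 4 over 3 arrays and 18.1% to 82.7% in those of the stage 4 over 1 arrays. The median probe level of these sets was 6.51 and 6.78 (log2 intensity), so that by this median the set with the higher H3.3 was the dimmer. The part of brightness in the split was not tested.

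**Figure D3:**
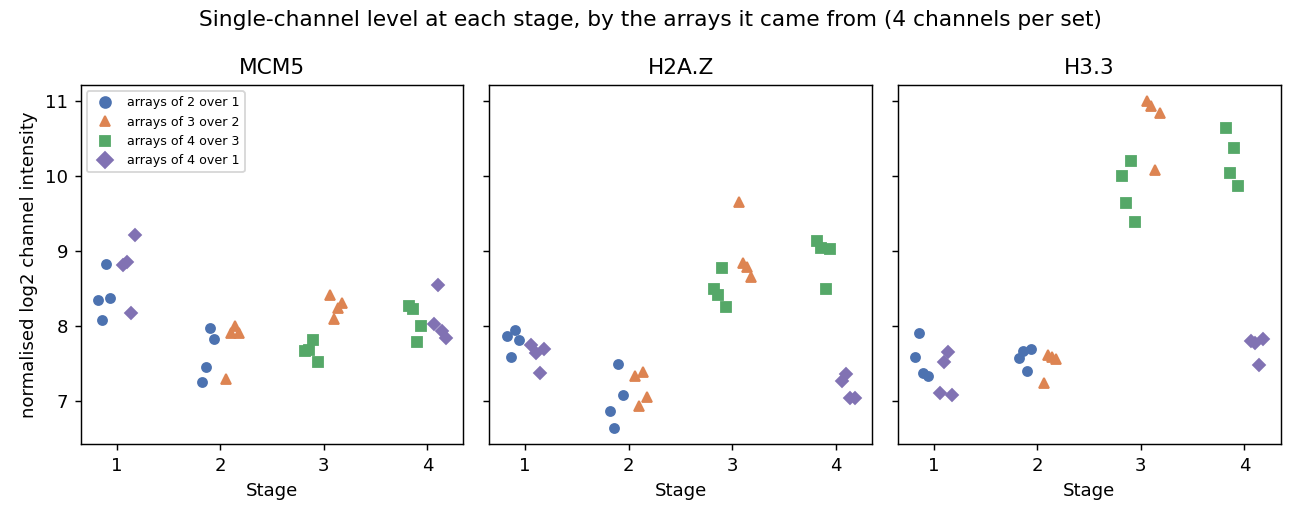
The y axis gives the normalized log2 intensity of single channels for MCM5, H2A.Z and H3.3 by stage on the x axis; marker shapes name the set of arrays, and each set of a stage holds 4 channels. The stage 4 channels of H3.3 sit at a mean of 10.23 on the arrays against stage 3 and at 7.72 on the arrays against stage 1, and those of MCM5 at 8.07 and 8.08.

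Taken over all 8 channels of a stage, the mean levels from stage 1 to stage 4 were 7.44, 7.54, 10.26 and 8.98 for H3.3, with SDs of 0.28, 0.15, 0.61 and 1.37. The mean of H3.3 was thus highest at stage 3, but its levels at stages 3 and 4 overlapped. They ran from 7.48 to 10.65 at stage 4, and the lowest at stage 3 was 9.39. On the arrays that compared stage 4 with stage 3 directly, H3.3 was higher at stage 4 on 4 of 4 (mean log2 ratio 0.42). H3.3 levels at stages 1 and 2 overlapped. For H2A.Z the mean levels were 7.71, 7.10, 8.73 and 8.05, with SDs of 0.18, 0.29, 0.42 and 0.96. By mean, stage 2 was thus lowest and stage 3 highest, with stage 4 spread over both. On the direct stage 4 over 3 arrays H2A.Z was higher at stage 4 on 3 of 4 (mean log2 ratio 0.44). For MCM5 the mean levels were 8.58, 7.70, 7.97 and 8.08, with SDs of 0.40, 0.31, 0.34 and 0.25. MCM5 had its highest mean at stage 1 and its lowest at stage 2, and stages 2, 3 and 4 overlapped. Stage 1 overlapped stages 3 and 4 but not stage 2. Both spots of each gene exceeded the 95th percentile of empty spots in all 8 channels of stages 2, 3 and 4 and in 7 of the 8 of stage 1. The stage 1 level of H3.3 was near background, at 40.5 to 99 intensity units on the stage 4 over 1 arrays, where a ratio depends on the background correction. H2A.Z was also low on those arrays, at 39.5 to 168 in the stage 1 channels and 41 to 120.5 in the stage 4 channels.

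A dye effect, Cy5 over Cy3 at equal stage, does not enter the stage changes either, though it may enter the spread around them. It was -0.05 ± 0.10 (SE) for MCM5, 0.06 ± 0.08 for H2A.Z and 0.14 ± 0.05 for H3.3 (limma, adjusted p = 0.813, 0.75 and 0.152). None was called, against 1.04% of all probes, and 1 of the 3, H3.3, was under 0.05 before adjustment. With median centring in place of loess the H3.3 value was 0.40 and was called.

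Egg and germ line markers shared the direction of the histones at stage 3 over 2 but not that of H3.3 at stage 4 over 1. There 2 of the 3 markers were called lower. All 16 marker genes, those of the sperm and axoneme, muscle and digestive lists included, were on the study's list, so they were chosen on these arrays and their calls are not independent evidence. Of vitelline envelope zona pellucida domain 7 and 9, proteins of the egg coat, and PAN-1, a protein of the germ granules of Caenorhabditis elegans, 3 of 3 rose at stage 3 over 2 (median log2 ratio 1.67, lowest 1.09, highest 2.16), where the median of all probes was 0.03. In that comparison 14.8% of all probes and 53.5% of the 368 listed genes were called. In both comparisons with stage 1, 2 of the 3 were called lower (median -1.41 at stage 2 over 1 and -1.63 at stage 4 over 1). There 25.3% and 25.8% of the listed genes were called. Domain 9, not called in either, was at -0.36 ± 0.38, below 0 on every array, and at 0.09 ± 0.22. H3.3 was at 0.03 and 0.38 in these comparisons. At stage 4 over 1 the falls were larger with stage 4 in Cy5, at -3.19 on average for PAN-1 and -2.28 for domain 7. With stage 4 in Cy3 they were -0.93 and -0.98. Single arrays decided some of these calls: domain 7 at stage 2 over 1 was not called without replicate 2 or 4 (-1.10 and -1.36), PAN-1 there without replicate 1, 2 or 3 (-1.46, -1.68 and -1.70) and at stage 4 over 1 without replicate 1 or 4 (-1.68 both), and domain 9 at stage 3 over 2 without replicate 2 (0.93). Other processing also ended calls, for domain 9 at stage 3 over 2 plain subtraction and median centring, for domain 7 no background correction in both comparisons with stage 1, and for PAN-1 at stage 2 over 1 no background correction and print-tip loess. At stage 4 over 3, where H3.3 and H2A.Z averaged 0.42 and 0.44, the markers differed in sign. Domain 9 was at 1.46 ± 0.49 and called, except with print-tip loess. Domain 7 was at 0.24 ± 0.27 and PAN-1 at -0.56 ± 0.27, below 0 on every array, and neither was called. In that comparison 5.26% of all probes and 24.7% of listed genes were called. The summed level of the 3 genes in the stage 4 channels was 4293 to 6489 on the arrays against stage 3 and 399 to 837 on those against stage 1, the same way round as H3.3 and H2A.Z. Domain 9 carried most of that sum, with a difference between the sets of 3.84 on the log2 scale, against 1.76 for domain 7 and 0.93 for PAN-1. Over the 8 channels of each stage, from stage 1 to 4, the sum lay at 817 to 2300, 415 to 2390, 2231 to 5583 and 399 to 6489. The loop mismatch was 2.09 for domain 9, 2.12 for domain 7 and 1.94 for PAN-1 (limma, adjusted p = 0.00116, 0.0133 and 0.0762), and only that of domain 9 was called. No defining marker was at background, since both spots exceeded the empty spots in at least 31 of 32 channels. Their part in the histone values was not tested.

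Other marker lists were read in the same channels. The summed level of 3 sperm and axoneme genes in the stage 4 channels was 487 to 582 on the arrays against stage 3 and 379 to 456 on those against stage 1, and that of 8 digestive genes was 1591 to 2177 and 1688 to 2413. For 2 muscle genes it was 221 to 269 and 184 to 263. By these sums the sets overlapped for the digestive and muscle lists and not for the sperm and axoneme list. Gene by gene, the sets overlapped for all 3 sperm and axoneme genes. They did not overlap for alpha-amylase (log2 difference -2.07), the trypsin-like gene (0.89) and a sarcoplasmic calcium-binding protein of the muscle list (0.37). Of all probes 29.8% did not overlap. At stage 3 over 2, 3 of 3 sperm and axoneme genes rose (median 0.80). The samples are labelled female, and which cells carry these transcripts was not tested. Of the digestive genes, 6 of 8, all chitinases, were called lower there (median -2.00), against 14.8% of all probes and 53.5% of listed genes called. The trypsin-like gene went the other way (1.47 ± 0.23, above 0 on every array), and alpha-amylase was level (-0.02 ± 0.09). At stage 4 over 1, 7 of 8 digestive genes were called lower (median -2.27), against 7.5% of all probes and 25.8% of listed genes. Alpha-amylase was at 0.33 ± 0.37 there and not called. A radial spokehead-like gene of the sperm and axoneme list was not called at stage 3 over 2 with plain subtraction or median centring. The chitinase AJ625051 was not called at stage 3 over 2 without replicate 1 or 2 (-1.54 and -1.55). The trypsin-like AJ624548 was not called at stage 4 over 1 without replicate 1 or 4 (-1.37 without replicate 4) or without background correction, nor was the chitinase AJ624637 with median centring. In that comparison the trypsin-like gene averaged -2.84 with stage 4 in Cy5 and -0.73 with stage 4 in Cy3. Over the 8 channels of each stage, from 1 to 4, the sperm and axoneme sum lay at 301 to 567, 323 to 503, 629 to 882 and 379 to 582, the digestive sum at 8184 to 17507, 19421 to 45014, 1830 to 7021 and 1591 to 2413, and the muscle sum at 229 to 404, 292 to 428, 227 to 469 and 184 to 269. The digestive sum was thus lower at stages 3 and 4 than in any channel of stage 1, and its part in the values of MCM5, H2A.Z and H3.3 was not tested.

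Other genes of chromatin and DNA replication did not share 1 pattern. Of 18 such annotated genes, 4 were tied to a clone, and all 4 were on the study's list, so they were chosen on these arrays and are not independent evidence. At stage 3 over 2, 1 of the 4 was called higher and 2 lower (median -0.18), where 14.8% of all probes and 53.5% of listed genes were called. SMC hinge domain containing 1, not called there, was at 0.39 ± 0.15 and above 0 on every array. The gene called higher was a TRF1-interacting ankyrin-related ADP-ribose polymerase, which acts at telomeres, with a log2 ratio of 1.77 ± 0.15 (SD, n = 4). AJ623838, which has no description and is listed by its chromatin term, fell by 0.95 ± 0.09. DNA ligase I, the enzyme that seals Okazaki fragments, was at -0.75 ± 0.29 and called, but at 0.027 under print-tip loess. Later, DNA ligase I rose by 1.04 ± 0.13 and the polymerase fell by 0.79 ± 0.08 (stage 4 over 3). SMC hinge domain containing 1, a chromatin protein related to the SMC family, fell at stage 2 over 1 (-1.03 ± 0.44). It was the only 1 of the 4 called there, against 6.51% of all probes and 25.3% of listed genes. The polymerase was the only 1 called at stage 4 over 1, against 7.5% of all probes and 25.8% of listed genes. It rose by 0.52 ± 0.25 there but was not called without replicate 3 or 4 (0.48 and 0.43). The polymerase call at stage 4 over 1 was also lost without background correction, with median centring and with print-tip loess. Median centring ended the polymerase call at stage 4 over 3 as well. It also ended the call of SMC hinge domain containing 1 at stage 2 over 1. For DNA ligase I it ended the call at stage 3 over 2. Medians of the 4 at stage 2 over 1, 4 over 3 and 4 over 1 were -0.05, 0.33 and -0.05, against -0.03, -0.02 and -0.09 over all probes. By limma the loop mismatch was called for none of the 4, against 5.78% of all probes. Before adjustment 0 of them were under 0.05, with values between -0.30 and 0.33.

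Growth control and nuclear RNA genes were mixed as well. Among 4 growth control genes on the study's list, a Myc homolog, a transcription factor of growing cells, fell at stage 2 over 1 (-0.89 ± 0.19), rose at stage 3 over 2 (0.85 ± 0.14) and rose at stage 4 over 1 (0.74 ± 0.30), the last of which differs in sign from MCM5. The p8 protein fell at stage 3 over 2 (-0.64 ± 0.14), and the antiproliferative B-cell translocation gene fell at stage 4 over 1 (-1.87 ± 1.35). The first was not called without replicate 1 or 3 (-0.60 both), nor the second without replicate 1 or 4 (-1.45 and -1.51). The B-cell translocation gene averaged -3.04 with stage 4 in Cy5 and -0.70 with stage 4 in Cy3. The delta-N p63 p73-like protein had the largest means of the 4 but was not called. Its means were -1.87 ± 0.62 at stage 2 over 1, 2.11 ± 0.34 at 3 over 2 and -1.90 ± 2.01 at 4 over 1. The last averaged -3.62 with stage 4 in Cy5 and -0.17 with stage 4 in Cy3. It was called at stage 4 over 1 when replicate 2 was left out (-2.52). Duplicate spots kept apart gave calls at stages 2 over 1, 3 over 2 and 4 over 1. Print-tip loess gave calls at 2 over 1 and 3 over 2, and median centring at 3 over 2. For this gene, the paper's Q-PCR in female digestive gland ran opposite to its array trend there. Median centring ended the Myc calls at stages 2 over 1 and 3 over 2. The p8 call was lost with median centring, print-tip loess or plain subtraction, and that of the B-cell translocation gene with median centring, print-tip loess or no background correction. None of the 4 was called at stage 4 over 3 by limma, where 5.26% of all probes and 24.7% of listed genes were called. Before adjustment 0 were under 0.05, against 17.1% of all probes. Of 6 splicing and nuclear RNA genes, 1 was called higher and 3 lower at stage 3 over 2 (median -0.45). The shares called there were 14.8% of all probes and 53.5% of listed genes. The small nuclear ribonucleoprotein D3, not called, was above 0 on every array (0.83 ± 0.16). The gene called higher was the small nuclear ribonucleoprotein Sm D1, a core protein of the spliceosome (0.98 ± 0.24). Those called lower were the RNA helicases DDX42 (-1.36 ± 0.07) and DDX17 (-0.74 ± 0.23) and the RNA binding motif protein 17 (-0.85 ± 0.14). The DDX17 call was lost without any 1 of the arrays (-0.83 to -0.67). At stage 2 over 1 DDX42 rose (0.74 ± 0.38, not called without replicate 1, 0.56), as did the RNA binding motif protein 17 (0.45 ± 0.17, not called without any 1 array, 0.37 to 0.49). Later, hnRNP R fell at stage 4 over 3 (-0.71 ± 0.18). At stage 4 over 1, where 7.5% of all probes and 25.8% of listed genes were called, 2 of the 6 were called lower. They were DDX42 (-0.85 ± 0.35) and the RNA binding motif protein 17 (-0.66 ± 0.20). These 3 later calls were lost with median centring and without background correction, that of the RNA binding motif protein 17 also with print-tip loess, and median centring ended the Sm D1 call. The DDX17 call and that of the RNA binding motif protein 17 at stage 2 over 1 were lost with plain subtraction, print-tip loess, dim spots left out or the replicate block.

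**Figure D4:**
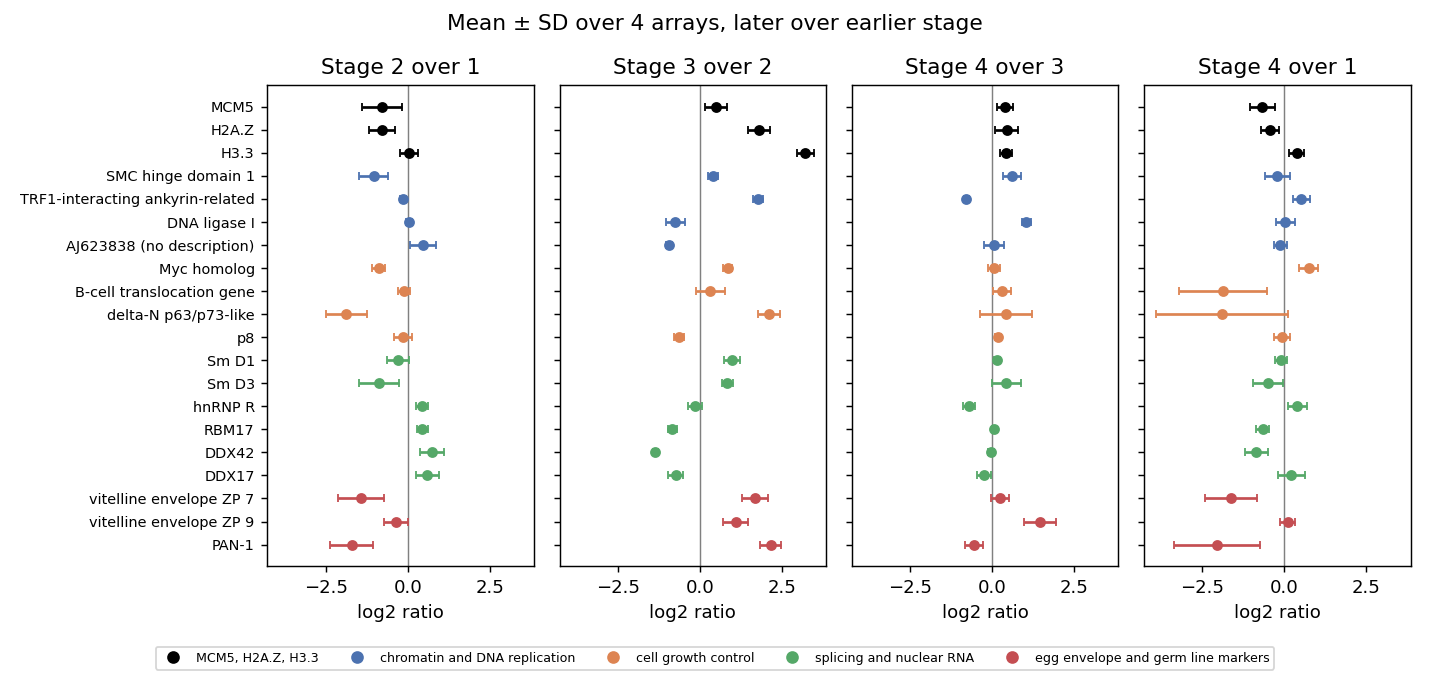
The x axis gives the log2 ratio of the later over the earlier stage, mean ± SD of 4 arrays, 1 panel per comparison, for MCM5, H2A.Z and H3.3 (black) and the genes of 4 lists named on the y axis. At stage 3 over 2, H3.3 at 3.21 lies farthest right, the egg and germ line markers lie between 1.09 and 2.16, and the splicing genes lie on both sides of 0.

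Across the 16 arrays H2A.Z ran with both others (Pearson r = 0.88 with H3.3 and 0.82 with MCM5), and MCM5 and H3.3 were less alike (r = 0.53). These are descriptions over 16 arrays that share 4 comparisons and the same normalization, in which the large stage 3 over 2 ratios weigh heavily. Of the 205 other listed genes with a description, the 3 most like H3.3 were a fibrinogen C domain containing protein (r = 0.98), a collagen alpha-1 chain precursor (r = 0.97) and a protocadherin (r = 0.97). For H2A.Z they were 2 clones of the mitochondrial genome (r = 0.94 and 0.89) and the same fibrinogen domain protein (r = 0.91). For MCM5 they were ribosomal protein S26 (r = 0.93), SMC hinge domain containing 1 (r = 0.90) and the small nuclear ribonucleoprotein D3 (r = 0.90). With median centring the 3 values for H2A.Z, in the order given, were 0.77, 0.59 and 0.72, and that of H3.3 with the collagen was 0.85. With loess, the genes nearest to the replication factor differed from those nearest to either histone. In mean log2 ratio at stage 4 over 3, the 3 nearest to H3.3 were at -0.40, -0.60 and -0.53, against 0.42 for H3.3. At stage 2 over 1 they were at -1.02, -0.65 and -0.75, against 0.03. At stage 4 over 1 they were at -0.27, -0.25 and -0.16, against 0.38. Those nearest to H2A.Z were at -0.42, -0.80 and -0.40 at stage 4 over 3, against 0.44, but shared its sign in the other comparisons. Those nearest to MCM5 shared its sign throughout.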

How the data were processed

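Dual-color cDNA arrays compared mantle RNA of single female mussels. Labelling was primed with oligo-dT. For every spot the authors deposited Cy5 and Cy3 intensity as scanned and quantified in GenePix (spot mean and median of the surrounding background), without normalization. The log2 ratios the authors deposited had been background-corrected with an offset and loess normalized in limma (version: not given in the sources used here). They served to tie genes to clones and as an alternative. All ratios run as later over earlier stage.

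Background was corrected by normexp (offset 50) and arrays normalized by loess with the 608 empty and 112 alignment spots at weight 0. The 2 spots of a probe were averaged, and limma 3.58.1 in R 4.3.3 was fitted to all 16 arrays and tested on simulated data. A probe was called at an adjusted p under 0.05 with B above 0 (prior share 0.01). Channel levels were scaled with Aquantile. All 368 listed genes matched 1 clone each within 0.005 (largest difference 0.00303). Columns from samples outside the series numbered 0. Of 1920 probes, none was saturated, and precision is limited by the 4 arrays per comparison. Arrays of a comparison differed more than duplicate spots did, with variance ratios of at least 1.39. Animals per array are not labelled, so p-values measure the spread between arrays, which may be technical in part.

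Named genes were the 3 genes, every gene of the lists that could be tied to a clone, and for each of the 3 the 3 listed genes with a description of highest correlation. The members, lists and rules were chosen with earlier results of these data known. Listed genes that the study did not list as modulated, among them PCNA and a second H2A.Z, were not analysed here, nor were genome positions or probe sequences.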

Additional observations from a re-analysis of the deposited data

How the results depend on the processing

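Alternatives were no background correction, plain subtraction, median centring, print-tip loess, loess over all spots, the authors' log2 ratios, dim spots left out, duplicate spots kept apart, the replicate block and each array left out, among them replicate 4 of stage 3 over 2 with its conflicting label. The cause of a shift was not tested. Without background correction H2A.Z was -0.37 at stage 2 over 1, 1.26 at 3 over 2 and -0.12 at 4 over 1, and H3.3 was 2.58 at 3 over 2 and -0.022 at 4 over 1. With plain subtraction H3.3 was 0.74 at stage 4 over 1, the median of all probes there shifted by 0.12, and the H2A.Z mismatch was 2.14 (not called). With median centring MCM5, H2A.Z and H3.3 were 0.11, 1.41 and 2.68 at stage 3 over 2 and 0.74, 1.01 and 0.86 at 4 over 3, MCM5 and H3.3 were 0.27 and 0.75 at 4 over 1, and the H2A.Z mismatch was 1.99 (not called). DNA ligase I at stage 3 over 2 turned to 0.027 with print-tip loess. Of 1080 values of list genes under alternatives other than leaving out an array, 50 lost a call and 44 gained one, of which median centring gave 16 and 14, no background correction 12 and 4, and print-tip loess 9 and 6.

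Probes called in the direct comparisons numbered 125, 284, 101 and 144 in the order of the text. Median centring gave 63 at stage 4 over 3 and 300 at 4 over 1, and duplicate spots kept apart gave 210 at 2 over 1 and 230 at 4 over 1. Of the calls, 28.8%, 56.7%, 56.4% and 37.5% were higher at the later stage, against 71.1%, 46.4%, 90.5% and 80% with median centring. The stage fit called 140, 154 and 81 probes at stages 2, 3 and 4. It called 51 at stage 4 without background correction, 92 at stage 2 with plain subtraction, 87 and 231 at stages 3 and 4 with median centring, and 244 and 132 at stages 2 and 4 with spots kept apart. The mismatch count was 111, and 186 with spots kept apart. The dye count was 20, against 0 without background correction (limma, 275 before adjustment), 277 with median centring and 3 with print-tip loess. Leaving out 1 array gave 77 to 142 calls at stage 2 over 1 (77 and 78 without its replicates 1 and 2), 61 to 108 at 4 over 3 (61 and 62 without its replicates 1 and 3) and 2 to 28 dye calls, and moved no change of the 3 genes by more than 1 SD.

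Whether replicate numbers pair arrays was not settled: 24 correlations between deviations of same-numbered arrays ran from -0.21 to 0.19, with 5 over 0.1. A shared female can give either sign, by the side of each ratio on which it stands, so these values cannot exclude pairing. Those between stage 3 over 2 and 4 over 3 were all below 0 (-0.173 to -0.095). With the replicate block the direct calls were 102, 264, 98 and 129, and the mismatch was called for 99 probes, H3.3 (adjusted p = 9.9e-06) and H2A.Z (0.00385) among them.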
